A study of Mus musculus with 12 samples.

Results

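Transcripts of the receptors for glutamate and GABA, the main fast excitatory transmitter and a main inhibitory transmitter of the spinal cord, were followed gene by gene in whole spinal cord. The set holds every gene whose symbol names a subunit of the AMPA, kainate, delta and NMDA receptors, a metabotropic glutamate receptor, or a subunit of the GABA-A, GABA-A rho and GABA-B receptors. That rule took 47 of the 38924 genes in the tables, 26 of them for glutamate receptors and 21 for GABA receptors, and used no measured value. The cords came from 12 mice aged 8 weeks on a mixed B6J;FVB background, 6 of them wild type (WT) and 6 heterozygous for a Gars allele with the ETAQ deletion (ETAQ/+). Each genotype had 3 females and 3 males, and each mouse gave 1 library. Gars encodes glycyl-tRNA synthetase, and dominant variants of the human gene cause a neuropathy of motor and sensory axons. The samples are whole cord, not sorted cells, and the labels name no driver that limits the allele to a cell type. In such bulk samples, fewer cells of a type and less RNA per cell cannot be told apart.

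AMPA, kainate and NMDA receptors are channels built from several subunits that open when glutamate binds, and AMPA receptors carry most of the fast excitatory current. NMDA receptors need the subunit encoded by Grin1 and pass calcium when the membrane is already depolarised, whereas subunits of the Grin3 pair lower that calcium flow and bind glycine. GABA-A receptors are chloride channels assembled from several subunit families, and metabotropic glutamate receptors and GABA-B receptors act through G proteins. In the cord these receptors set the excitation and inhibition that reach motor neurons and relay sensory input.

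Of the 47 genes, 42 had enough counts to be tested among 17189 genes. The AMPA, kainate, delta, NMDA and GABA-B classes were tested whole, with 4, 5, 2, 7 and 2 genes. The metabotropic class lost 1 of 8 genes, the GABA-A class 2 of 16 and the rho class 2 of 3. The 5 genes left out were near 0: Gabrr1 had 37 counts over all 12 libraries, Gabrr3 had 12, Grm6, the receptor of retinal bipolar cells, had 9, Gabra6, the subunit of cerebellar granule cells, had 2, and Gabrp had 1. Library totals ran from 23595929 to 41452662 expected counts. The approximate upper limit for a count of 0, 3 counts, came to 0.0724 to 0.127 CPM (counts scaled to a common library size). These limits leave out every error but that of counting.

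The libraries also fall into a pair of sets by mouse number, which the labels do not call a batch. Mice 1 to 6 (1 ETAQ/+ female, 2 ETAQ/+ males and 3 WT males) carried summed red blood cell marker levels of 1890 to 3511 normalised CPM, against 143 to 268 in mice 7 to 12 (2 ETAQ/+ females, 1 ETAQ/+ male and 3 WT females). Skeletal muscle markers summed to 37.9 to 628 against 0.441 to 1.07, and Schwann cell markers to 320 to 748 against 75.1 to 98.7. Each genotype has 3 mice in each set, while sex and set largely coincide. Genes called for genotype are therefore given also with the set in the model and within each set.

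Of the genes that the results below turn on, the promoters of 3 are printed first. They belong to Grin3b, the 1 receptor gene called for genotype, Gria4, the leading AMPA transcript by TPM, and Gabra2, the most variable abundant member. Each is the RefSeq window of 300 bases (GRCm38.p6), 250 before and 50 after the annotated start, written 5′ to 3′ on the gene's strand, with capitals marking a match to a searched motif on either strand. Grin3b lies at chr10:79970474-79970773 (plus strand), Gria4 at chr9:4796185-4796484 (minus strand) and Gabra2 at chr5:71095800-71096099 (minus strand).
Grin3b: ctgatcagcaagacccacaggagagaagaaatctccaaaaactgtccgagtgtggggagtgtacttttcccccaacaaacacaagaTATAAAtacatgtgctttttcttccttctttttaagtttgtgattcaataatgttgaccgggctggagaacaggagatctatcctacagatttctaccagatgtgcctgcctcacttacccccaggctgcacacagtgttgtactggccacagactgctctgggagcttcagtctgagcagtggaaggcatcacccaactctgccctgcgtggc
Gria4: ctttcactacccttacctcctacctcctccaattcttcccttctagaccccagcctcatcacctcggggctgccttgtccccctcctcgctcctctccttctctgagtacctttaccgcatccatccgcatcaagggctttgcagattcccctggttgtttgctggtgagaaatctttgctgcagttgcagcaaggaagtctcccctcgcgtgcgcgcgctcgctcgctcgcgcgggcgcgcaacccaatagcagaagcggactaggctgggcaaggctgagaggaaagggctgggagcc
Gabra2: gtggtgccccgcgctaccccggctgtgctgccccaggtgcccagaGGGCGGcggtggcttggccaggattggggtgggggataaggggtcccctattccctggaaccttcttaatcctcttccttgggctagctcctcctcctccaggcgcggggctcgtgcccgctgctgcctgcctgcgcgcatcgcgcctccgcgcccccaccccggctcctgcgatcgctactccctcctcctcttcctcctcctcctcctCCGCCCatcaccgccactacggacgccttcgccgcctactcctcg
The Grin3b window holds 3 CpG and 48.3% G or C, with TATAAA 164 bases upstream of the start. The Gria4 window holds 17 CpG and 59.7% G or C and matched none of the motifs, and the Gabra2 window holds 25 CpG and 70.0% G or C with GGGCGG at 2 places. The median was 7 CpG over 32851 windows and 12 over the 39 windows of the 32 receptor genes that have one. TATAAA stood in 13.6% of all windows and in 4 receptor windows of 3 genes (Gabra3, Gabrb2 and Grin3b), and GGGCGG, the GC box, in 35.7% of all windows and 19 receptor windows. TGATGNAA, the core bound by C/EBP-ATF dimers, stood in 3.97% of all windows and 3 receptor windows of 2 genes (Gabra6 and Grm7), and TAATTA, a homeodomain core, in 5.29% of all windows and 1 receptor window (Gabrg1). These matches describe letters in a window and are not binding sites.

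Levels between genes are compared here in TPM, the deposited value per transcript length and library, as the mean ± SD over all 12 mice. The GABA-A class was the most abundant at 417 ± 41.7 TPM in sum, followed by the 2 GABA-B genes at 347 ± 20.2, the AMPA class at 231 ± 24.1 and the NMDA class at 208 ± 16.7. Metabotropic glutamate receptors summed to 109 ± 11.4 TPM, kainate receptors to 77.1 ± 8.18 and delta receptors to 25.4 ± 2.78, while the rho class ranged from 0.56 to 1.5 TPM over the mice. The AMPA and NMDA sums overlapped from mouse to mouse, with ranges of 197 to 265 and 179 to 236 TPM. The single most abundant transcript was Gabbr1, the GABA-binding subunit of the GABA-B receptor, at 298 ± 16.4 TPM. Its obligate partner Gabbr2, which couples to the G protein, stood at 48.9 ± 4.59 TPM, so that Gabbr1 made up 85.9% ± 0.717 of the class.

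**Figure D1:**
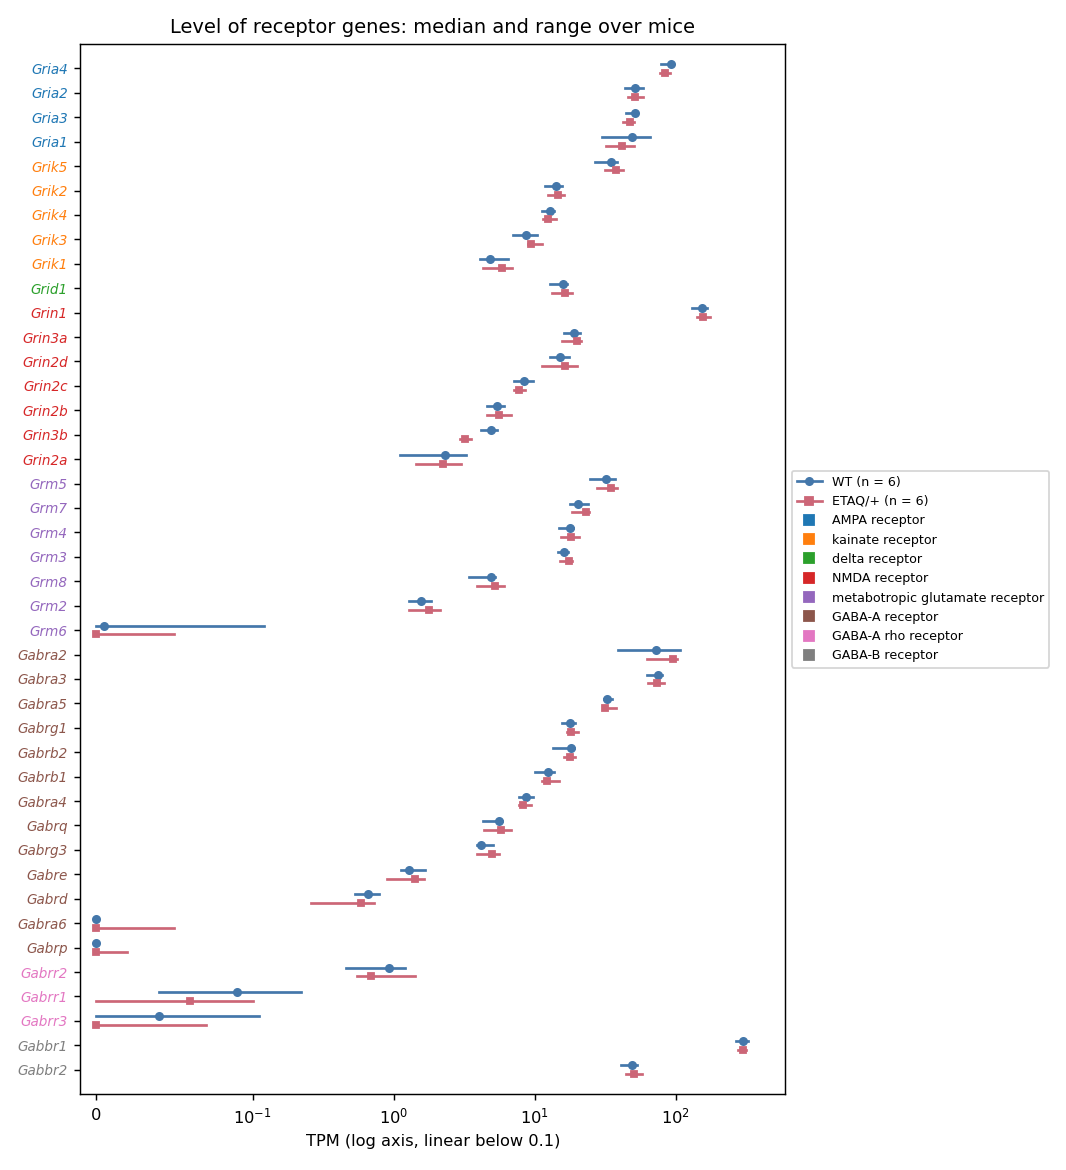
TPM of 42 of the 47 receptor genes on an axis that is logarithmic above 0.1 and linear below, with the median (symbol) and the range (line) over 6 WT and 6 ETAQ/+ mice; gene names are coloured by receptor class. Gabbr1 and Grin1 lie farthest right at 298 and 154 TPM on average, and of the tested genes drawn only Grin3b shows ranges that do not overlap between the genotypes.

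Among AMPA receptors, Gria4 led with 37.4% ± 1.10 of the class TPM, ahead of Gria2 (22.2% ± 1.21), the subunit whose edited form keeps calcium out, Gria3 (21.0% ± 1.02) and Gria1 (19.4% ± 2.54). The spread of the last 3 overlapped, and their order is not resolved. The lead of Gria4 depends on the length used for TPM, 4341 to 4548 bases over the mice against 6841 for Gria2. Before division by length, Gria4 ranged from 193 to 234 normalised CPM and Gria2 from 181 to 227, with overlap. Among NMDA receptors, the obligatory Grin1 made up 73.9% ± 0.804 of the TPM. Grin3a followed with 9.09% ± 0.598, then Grin2d with 7.41% ± 0.662, Grin2c with 3.91% ± 0.585, Grin2b with 2.68% ± 0.385, Grin3b with 1.95% ± 0.469 and Grin2a with 1.04% ± 0.263. By TPM, Grin2d was thus the leading glutamate-binding Grin2 transcript of these adult cords. That order depends on the transcript length by which TPM divides. The length ran from 15379 to 22912 bases over the mice for Grin2b and from 4060 to 4662 for Grin2d. Before that division Grin2b was the higher, at 63.0 normalised CPM on average against 37.4 for Grin2d. The high-affinity kainate subunit Grik5 took 46.2% ± 1.16 of the kainate TPM and Grid1 took 62.3% ± 1.47 of the delta TPM. Grm5, a receptor that raises calcium through phospholipase C, led the metabotropic class with 29.5% ± 1.40, ahead of Grm7, a presynaptic brake on release, with 19.6% ± 0.992.

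Within the GABA-A class, the alpha subunit genes Gabra2 and Gabra3 stood at 82.5 ± 21.2 and 73.1 ± 7.62 TPM and did not differ beyond their spread, and Gabra5 stood at 33.0 ± 2.26. The alpha subunits decide much of a receptor's pharmacology, gamma subunits add the benzodiazepine site, and beta subunits form the GABA site with alpha. Gabrd, which encodes a subunit of some extrasynaptic receptors, was listed at 0.608 ± 0.142 TPM. In GENCODE M21 (GRCm38), Gabrg1, Gabra2, Gabra4 and Gabrb1 stand in a cluster on chromosome 5 (70751047 to 72149037), and Gabre, Gabra3 and Gabrq in another on the X chromosome (72255999 to 72842602). Levels within a cluster ranged widely, from 8.60 ± 0.747 TPM for Gabra4 to 82.5 for Gabra2 on chromosome 5 and from 1.33 ± 0.245 for Gabre to 73.1 for Gabra3 on the X chromosome.

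The comparison of ETAQ/+ with WT asked which receptor transcripts change in cords that carry the allele. Almost none was called: 1 of the 42 tested genes, Grin3b, passed an adjusted p of 0.05 in edgeR's quasi-likelihood test adjusted for sex. It was lower in ETAQ/+. A gene that was not called is not thereby shown to be unchanged. Of all 17189 genes 1.92% were called and 1.34% were called lower, so a count of 1 in 42 is near that background. Likewise 1 receptor gene, again Grin3b, had levels that did not overlap between the genotypes, against 2.01% of all genes, 1.35% in that direction. At an unadjusted p under 0.05, 5 receptor genes were counted (Grin3b, Gria3 and Gria4 lower, Grik3 and Gabrg3 higher), against 10.9% of all genes, 6.36% lower and 4.53% higher. The median log2 fold change of ETAQ/+ over WT was 0.01 over the 42 genes and 0.004 over all genes. The class medians of that fold change lay at -0.12 for AMPA receptors, 0.08 for kainate receptors, 0.02 for delta receptors, -0.001 for NMDA receptors, 0.06 for metabotropic receptors, -0.002 for GABA-A receptors and -0.005 for GABA-B receptors.

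**Figure D2:**
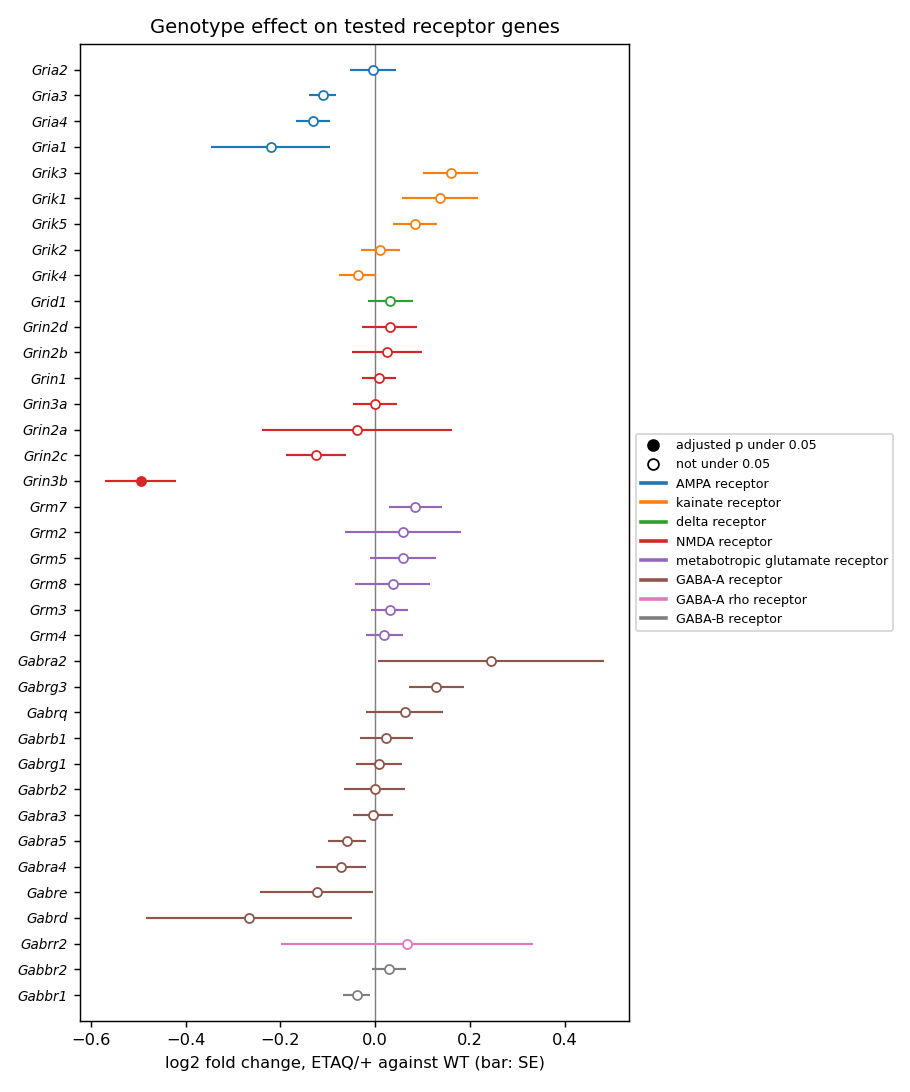
Log2 fold change of ETAQ/+ over WT with its standard error for 37 of the 42 tested receptor genes, grouped and coloured by class; a filled symbol marks an adjusted p under 0.05. Grin3b, at -0.49, is the only filled symbol, and the widest bars belong to genes of low or uneven level such as Gabrr2, Gabra2 and Gabrd.

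Grin3b (ENSMUSG00000035745, chromosome 10, 79970715 to 79977190, GRCm38), an NMDA receptor subunit known for its expression in somatic motor neurons, fell in ETAQ/+ cords. Its normalised CPM (scaled by TMM factors) had a low, median and high of 6.07, 6.71 and 7.23 in WT and of 4.40, 4.61 and 5.18 in ETAQ/+. Every ETAQ/+ mouse lay below every WT mouse. The means were 6.67 ± 0.487 and 4.73 ± 0.324 (SD, n = 6 each), and the log2 fold change was -0.49 ± 0.07 (SE), with an adjusted p of 0.00151 in edgeR. The gene was counted 106 to 253 times per library. Its share of the NMDA class TPM averaged 2.36% in WT and 1.55% in ETAQ/+. With the mouse set in the model the adjusted p was 0.000943. As a contrast within mice 7 to 12, taken from a fit of all 12 mice, the difference was -0.57 on the log2 scale (adjusted p = 0.0270 in edgeR). In the same fit the difference within mice 1 to 6 was -0.42, and the call was lost (adjusted p = 0.172 in edgeR).

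A limit on Grin3b is its neighbour. In GENCODE M21, 32.1% of its exon bases lie opposite exons of Tmem259, and 19.0% of its 75-base sequences also occur in transcripts of other genes, so without a stated strand setting its counts are uncertain. Tmem259 itself stood at 66.1 ± 3.05 normalised CPM in WT and 65.4 ± 2.02 in ETAQ/+ (log2 fold change -0.01, adjusted p = 0.936 in edgeR). The length that RSEM gives a gene, weighted by its estimated isoform shares, averaged 2530 bases for Grin3b in WT and 2712 in ETAQ/+. In limma this was a log2 difference of 0.11 with an unadjusted p of 0.0292 and an adjusted p of 1. Weighted length was the readout that the counts do not give, and it varied for 32 of the tested receptor genes. None of them passed the adjusted threshold for genotype, against 0.0275% of the 10903 genes whose length varied, and Grin3b was the 1 with an unadjusted p under 0.05, against 4.7% of those genes.

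Some motor neuron markers moved alongside Grin3b. Chat, the enzyme that makes acetylcholine, went from 24.6 ± 1.12 normalised CPM in WT to 15.8 ± 0.978 in ETAQ/+ (log2 fold change -0.64 ± 0.05, adjusted p = 2.62e-06 in edgeR). Of the 5 motor neuron markers found in the tables, 2 were called lower, Chat and Chodl (-1.84), and Slc5a7 (-0.28, adjusted p = 0.138), Mnx1 (-0.14, adjusted p = 0.779) and Isl1 (-0.02, adjusted p = 0.986) were not called by edgeR. None of the 5 was at 0 in any mouse, and their summed level was 161.7 to 194.7 normalised CPM in WT and 99.9 to 128.7 in ETAQ/+. The ratio of Grin3b to Chat, the only marker so compared, averaged 0.271 ± 0.0249 in WT and 0.300 ± 0.0117 in ETAQ/+. Its ranges of 0.241 to 0.302 in WT and 0.288 to 0.319 in ETAQ/+ overlapped. Markers of all neurons summed to 3742 to 3900 in WT and to 3403 to 3733 in ETAQ/+, where edgeR called 0 of 5, DESeq2 2 and limma-voom 0, with 4 lower at an unadjusted p under 0.05. Sensory ganglion markers summed to 3.12 to 4.91 in WT and to 12.1 to 18.3 in ETAQ/+, with 2 of 4 called higher. Another of the 4, Isl2, went the other way without being called (log2 fold change -0.83, adjusted p = 0.142 in limma-voom). The part of these cell types in the fall of Grin3b was not tested.

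**Figure D3:**
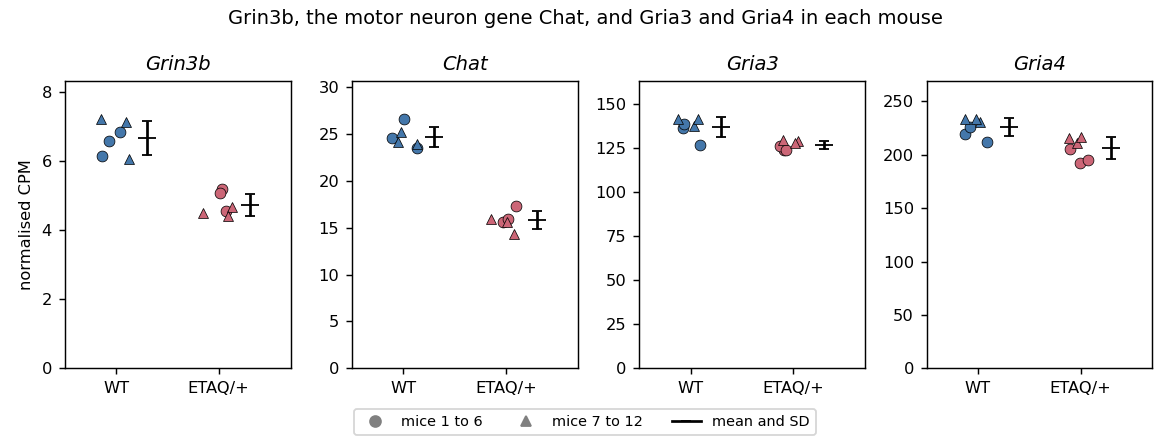
Normalised CPM of Grin3b, of Chat, the enzyme that makes acetylcholine in motor neurons, and of the AMPA subunit genes Gria3 and Gria4 in each of 12 mice, circles for mice 1 to 6 and triangles for mice 7 to 12, with the mean and SD at the right of each group (n = 6). Grin3b and Chat separate the genotypes without overlap, whereas the highest ETAQ/+ values of Gria3 and Gria4 reach above the lowest WT value.

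The AMPA receptor was the class with the lowest median, and 2 of its genes stood close to the threshold. Gria4 (ENSMUSG00000025892, chromosome 9, 4417896 to 4796234) had a low, median and high of 211.8, 228 and 233.8 normalised CPM in WT and 192.6, 208 and 216.9 in ETAQ/+. The groups overlapped only in WT mouse 4, at 211.8, and the upper ETAQ/+ mice. Its log2 fold change was -0.13 ± 0.04 with an adjusted p of 0.103 in edgeR. Gria3 (ENSMUSG00000001986, X chromosome, 41400854 to 41678601) had 126.6, 138 and 141.8 in WT and 124.0, 127 and 129.6 in ETAQ/+. Here too WT mouse 4, at 126.6, was the 1 WT mouse within the range of the ETAQ/+ mice. The log2 fold change was -0.11 ± 0.03 (adjusted p = 0.0757 in edgeR).

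These 2 genes passed the threshold under some other fits and not under others. With the mouse set as a covariate, Gria4 had an adjusted p of 0.00773 and Gria3 of 0.0312 in edgeR, and the 3 receptor genes called in that fit were all lower, against 2.71% of all genes called and 1.83% called lower. DESeq2 called the same 3 genes (adjusted p = 0.0246 for Gria4 and 0.0190 for Gria3), against 2.94% of all genes, 2% lower, and limma-voom called Grin3b alone, against 1.89%. Without WT mouse 4, Gria3 stood at -0.13 with an adjusted p of 0.0167, and without ETAQ/+ mouse 11, Gria4 stood at -0.15 with an adjusted p of 0.035. In limma on log2(TPM + 0.1) the differences were smaller, at -0.07 for Gria3 (adjusted p = 0.732) and -0.08 for Gria4 (adjusted p = 0.723). Neither gene was called with RLE factors, without the count filter, without the sex covariate or with limma-voom, where the adjusted p lay between 0.0912 and 0.138. Within mice 1 to 6 edgeR called 0 receptor genes, with 4 at an unadjusted p under 0.05, against 0.803% of all genes called and 8.89% at that unadjusted p, and within mice 7 to 12 it called Grin3b alone, against 0.937%, with 4 at an unadjusted p under 0.05, against 9.54%.

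Of the other AMPA genes, Gria1 had 97.7, 145 and 197 normalised CPM as its low, median and high in WT and 105, 125 and 149 in ETAQ/+. Its groups overlapped widely (log2 fold change -0.22 ± 0.12, adjusted p = 0.604 in edgeR). Gria2 differed by -0.01 ± 0.05 (adjusted p = 0.986). As a share of the class TPM, Gria2 averaged 21.4% ± 1.01 in WT and 23.1% ± 0.676 in ETAQ/+, with overlapping ranges.

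In the kainate class, Grik3 had the smallest p and Grik5 the highest level. Grik3, a low-affinity subunit, had a low, median and high of 40.2, 44.2 and 53.7 normalised CPM in WT and 45.3, 49.1 and 55.7 in ETAQ/+. The groups overlapped, and the log2 fold change of 0.16 ± 0.06 was not called (adjusted p = 0.270 in edgeR), although without ETAQ/+ mouse 1 it was 0.21 with an adjusted p of 0.027. Grik5 had 63.3, 75.4 and 81.0 in WT and 71.2, 78.9 and 86.6 in ETAQ/+, a difference of 0.08 ± 0.05 (adjusted p = 0.562), and of 0.05 without ETAQ/+ mouse 11 or without WT mouse 2. The remaining 3 kainate genes lay between -0.04 and 0.14 on the log2 scale. Of the delta receptors, which bind cerebellins at synapses, Grid1 had 46.8, 53.1 and 56.6 in WT and 47.6, 53.4 and 59.7 in ETAQ/+ (0.03 ± 0.05, adjusted p = 0.884 in edgeR).

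Apart from Grin3b, no NMDA gene was called. Grin1, the subunit that every NMDA receptor contains, had a low, median and high of 300.1, 319 and 347 normalised CPM in WT and 301, 324 and 353 in ETAQ/+, almost the same range. Its log2 fold change was 0.01 ± 0.04 (adjusted p = 0.975 in edgeR). In the annotation 13.5% of its exon bases lie opposite Grin1os. Its sequences were shared with other genes at 5.67%, those of Grin2a at 11.1%, Grin2d at 6.46% and Grm2 at 7.98%, and the counts of these genes are uncertain to that extent.

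None of the 7 tested metabotropic receptors was called by edgeR, DESeq2 or limma-voom, against 1.92%, 2.94% and 1.89% of all genes. In edgeR 0 had an unadjusted p under 0.05, against 10.9% of all genes. Grm5, the most abundant of them, had 87.9, 108 and 126 normalised CPM as its low, median and high in WT and 95.3, 111 and 125 in ETAQ/+, with overlapping groups (log2 fold change 0.06 ± 0.07, adjusted p = 0.849 in edgeR). All 7 fold changes lay between 0.02 and 0.08.

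On the inhibitory side 0 of the 17 tested GABA receptor genes passed in edgeR, DESeq2 or limma-voom, against 1.92%, 2.94% and 1.89% of all genes. In edgeR 1, Gabrg3, had an unadjusted p under 0.05, against 10.9% of all genes. Gabrg3 had a low, median and high of 16.8, 19.4 and 21.6 normalised CPM in WT and 19.1, 21.0 and 22.8 in ETAQ/+, with overlapping groups (log2 fold change 0.13 ± 0.06, adjusted p = 0.426 in edgeR). Gabbr1 had 532, 570 and 593 in WT and 536, 554 and 563 in ETAQ/+. With an SE of 0.03 around a log2 fold change of -0.04 (adjusted p = 0.700), it was among the most narrowly estimated members. Gabbr2 differed by 0.03 ± 0.04. Gabrr2, the 1 rho gene tested, stood at 0.883 ± 0.324 TPM, and its log2 fold change of 0.07 ± 0.27 (adjusted p = 0.967) was close to uninformative at that level.

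Gabra2 (ENSMUSG00000000560, chromosome 5, 70957597 to 71095849) varied from mouse to mouse within both genotypes. It had a low, median and high of 50.0, 92.3 and 136 normalised CPM in WT and 81.4, 123 and 128 in ETAQ/+. WT mouse 12 was lowest at 50.0, WT mice 3 and 4 and ETAQ/+ mouse 6 stood at 83.0, 80.8 and 81.4, and the other 8 mice lay between 102 and 136. High and low mice occurred in both genotypes, in both sets and in both sexes, and the genotype difference was 0.24 ± 0.24 on the log2 scale (adjusted p = 0.806 in edgeR). That difference was 0.10 without WT mouse 12, 0.37 without WT mouse 2 and 0.38 without WT mouse 7, and it was 0.07 within mice 1 to 6 and 0.41 within mice 7 to 12, none of them called. The coefficient of variation over 12 mice was 25.1% and the highest mouse had 2.72 times the lowest. Its cluster neighbours on chromosome 5 varied less, with 7.18% for Gabra4, 7.82% for Gabrb1 and 6.64% for Gabrg1. Of the 10264 genes with a mean of at least 10 CPM, 1.60% varied more than Gabra2, and their median was 5.91%.

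Gria1 was the other abundant gene with a wide spread, at 20.1% and a ratio of 2.01 between the highest and the lowest mouse, and 2.30% of those 10264 genes varied more. WT mouse 12, the lowest for Gabra2, was the highest for Gria1 at 197 normalised CPM, and WT mouse 2 was the lowest at 97.7. The median coefficient of variation was 8.18% over the 42 receptor genes and 8.49% over all tested genes.

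**Figure D4:**
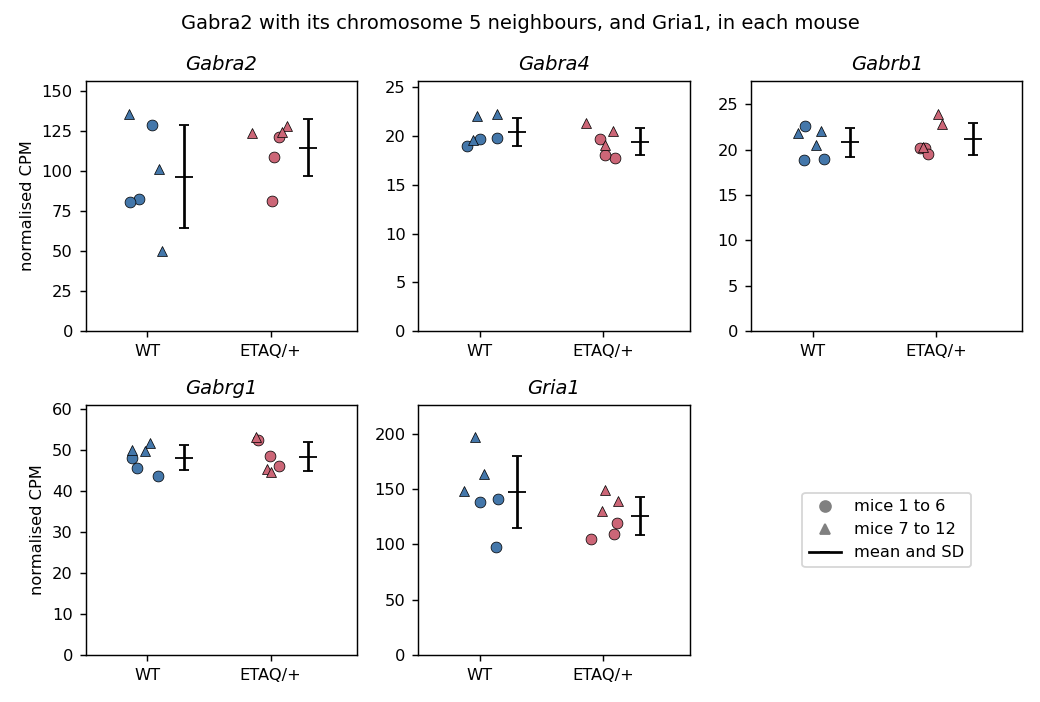
Normalised CPM of Gabra2, of its chromosome 5 cluster neighbours Gabra4, Gabrb1 and Gabrg1, and of Gria1 in each of 12 mice, circles for mice 1 to 6 and triangles for mice 7 to 12, with the mean and SD (n = 6 per genotype). Gabra2 runs from 50.0 to 136 in mice of the same genotype (WT), while each of its 3 neighbours stays within a narrow band.

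The difference of the genotype effect between females and males was tested as an interaction. No receptor gene was called by edgeR, DESeq2 or limma-voom, 0 had an unadjusted p under 0.05, and the smallest adjusted p was 0.901. Over all genes 0% were called and 4.96% had an unadjusted p under 0.05. For sex itself edgeR called 0 receptor genes against 0.0931% of all genes, while DESeq2 called 6, all lower in males, against 2.12% of all genes. At an unadjusted p under 0.05 there were 26, of which 25 were lower in males, against 16.8% of all genes and 8.72% lower. Sex and mouse set largely coincide here. With the set in the model, 0 receptor genes were called (0.0524% of all genes) and 2 had an unadjusted p under 0.05 (3.55% of all genes). In the model without the set, the sex count moved when single mice were left out. Without ETAQ/+ mouse 1, the only female of mice 1 to 6, it was 12 (5.9% of all genes). Without ETAQ/+ mouse 11, the only male of mice 7 to 12, it was 14 (6.78% of all genes). Leaving out either mouse makes sex and set coincide more closely, so these calls cannot be told apart from the set difference.

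More receptor genes were called between the mouse sets than between the genotypes. With genotype and sex in the model, edgeR called 11 of the 42 genes between mice 1 to 6 and mice 7 to 12, and all 11 were lower in mice 1 to 6. Of all genes 7.89% were called, 2.96% lower and 4.93% higher in mice 1 to 6. The fold change was below 0 for 36 of the 42 receptor genes, against 48.6% of all genes, and its median was -0.14 against 0.004. The levels of 13 receptor genes did not overlap between the sets, each lower in mice 1 to 6, against 8.85% of all genes with 3.86% in that direction. Summed over all receptor genes, mice 1 to 6 had 3032 to 3234 normalised CPM and mice 7 to 12 had 3432 to 3580.

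GABA-A subunit genes made up 5 of the 11. Gabra3 ranged from 122 to 131 normalised CPM in mice 1 to 6 and from 139.5 to 145 in mice 7 to 12, without overlap (log2 fold change -0.17 ± 0.03, adjusted p = 0.00540 in edgeR). Gabrq, also without overlap, ranged from 10.8 to 12.8 and from 13.1 to 15.2 (-0.31 ± 0.07, adjusted p = 0.0155).

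Glutamate receptor genes made up the other 6. Grin3a ranged from 67.9 to 76.5 normalised CPM in mice 1 to 6 and from 81.3 to 86.3 in mice 7 to 12 (log2 fold change -0.18 ± 0.04, adjusted p = 0.00683 in edgeR), and Grm5 from 87.9 to 107 and from 113 to 126 (-0.24 ± 0.06, adjusted p = 0.0183). Gria4 fell by 0.13 (adjusted p = 0.0312), Grid1 by 0.16 (0.0397) and Grm7 by 0.19 (0.0413). Grin2c (0.20, adjusted p = 0.0735) and Grin3b (0.10, adjusted p = 0.618) were among the 6 genes with a fold change above 0.

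**Figure D5:**
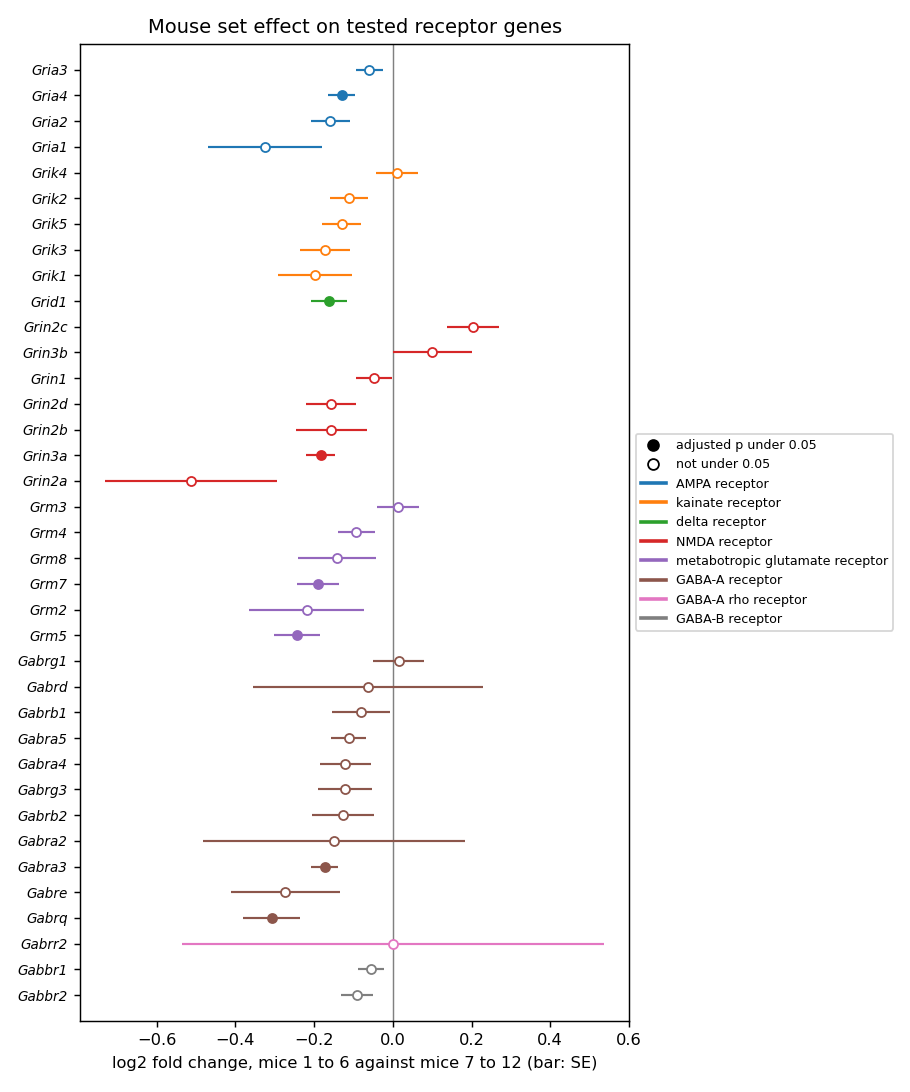
Log2 fold change of mice 1 to 6 over mice 7 to 12 with its standard error for 37 of the 42 tested receptor genes, genotype and sex being in the model; a filled symbol marks an adjusted p under 0.05. The 7 filled symbols all lie left of 0, as do 31 of the 37 genes drawn.

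Markers of other cells moved with this difference. The red blood cell, muscle and Schwann cell sums are given above, and neutrophil markers summed to 51.2 to 96.5 normalised CPM in mice 1 to 6 and to 0.251 to 2.17 in mice 7 to 12. Markers of inhibitory interneurons summed to 976.5 to 1074 and to 1104 to 1166, with 2 of 5 called lower, and those of excitatory interneurons to 297 to 321 and to 351 to 379.5, with 2 of 4 called lower. Markers of all neurons overlapped, at 3403 to 3878 and 3609 to 3900. Their part in the lower receptor levels was not tested. The count depended on single mice, since without ETAQ/+ mouse 1 it was 2 (0.977% of all genes) and without ETAQ/+ mouse 11 it was 1 (1.6% of all genes).

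Other genes of glutamate and GABA signalling were read in the genotype fit from 5 lists with 79 genes, all of them tested. Only 2 were called, against 1.92% of all genes, and both were higher in ETAQ/+, against 0.582% of all genes called higher. At an unadjusted p under 0.05 there were 10, against 10.9% of all genes. Among 20 auxiliary subunits and synaptic organisers, Cacng3, which traffics and slows AMPA receptors, was the 1 call. It had a low, median and high of 12.6, 15.3 and 15.8 normalised CPM in WT and 16.5, 17.7 and 19.3 in ETAQ/+, with no overlap, as 0.657% of all genes showed in that direction (log2 fold change 0.28 ± 0.06, adjusted p = 0.0303 in edgeR). That call was lost in 7 of the 12 fits that each left out 1 mouse, namely WT mice 2, 3, 10 and 12 and ETAQ/+ mice 6, 9 and 11, where the adjusted p reached 0.0778 at most. With the mouse set in the model the adjusted p of Cacng3 was 0.00673. The call was also lost within mice 1 to 6 (0.32, adjusted p = 0.102), within mice 7 to 12 (0.23, adjusted p = 0.312) and in limma on log2(TPM + 0.1) and log2(TPM + 1) (adjusted p = 0.334 and 0.331).

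Among 13 genes of glutamate synthesis, packaging and uptake, Slc1a3, the astrocyte transporter that clears glutamate, was the 1 call. It had 125.5, 131.6 and 138.8 normalised CPM in WT and 139.6, 150.2 and 161.6 in ETAQ/+, again with no overlap (0.19 ± 0.04, adjusted p = 0.0141 in edgeR). With the mouse set in the model the adjusted p was 0.00558. The call of Slc1a3 was lost within mice 1 to 6 (0.20, adjusted p = 0.159) and within mice 7 to 12 (0.17, adjusted p = 0.214). The astrocyte markers summed to 5096 to 5682 in WT and 5309 to 6200 in ETAQ/+, with 0 of 5 called by edgeR or limma-voom, 1 by DESeq2 and 2 higher at an unadjusted p under 0.05. Their part in this result was not tested.

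The 3 remaining lists held no call by edgeR, DESeq2 or limma-voom, against 1.92%, 2.94% and 1.89% of all genes. Their counts at an unadjusted p under 0.05 in edgeR stand against 10.9% of all genes. Of 21 excitatory postsynaptic scaffold genes, 2 had an unadjusted p under 0.05, and the smallest p was that of Grip2, a scaffold that binds AMPA receptors (0.11 ± 0.03, adjusted p = 0.110 in edgeR). Of 17 partners of GABA receptors and chloride transporters, 0 had an unadjusted p under 0.05, and the smallest p was that of Kctd16, an auxiliary subunit of GABA-B receptors (-0.30 ± 0.19, adjusted p = 0.633). Of 8 genes of GABA synthesis, packaging and uptake, 0 had an unadjusted p under 0.05.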

How the data were processed

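RNA of whole spinal cord was selected for polyA and sequenced as 75 bp read pairs, per the labels' protocols, which name both a stranded and another KAPA kit without saying which library had which. Reads were handled with Bowtie2 2.2.0 and RSEM 1.2.12, per the submitters' processing notes, while the build, annotation and strand setting are not given in the sources used here. In the tables the authors deposited there is an expected count, a TPM value and a weighted transcript length for each gene and mouse, per the file headers.

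Expected counts were rounded and tested in R 4.3.3 with edgeR 4.0.16: filterByExpr on the 4 genotype-by-sex groups, TMM factors of 0.975 to 1.02, and the robust quasi-likelihood test, adjusted by Benjamini-Hochberg over all 17189 genes with a threshold of 0.05. The SE of a log2 fold change is its size over the root of the F statistic. Length was tested with limma 3.58.1 (trend, robust). Alternatives were DESeq2 1.42.0, RLE factors, no filter, limma-voom, log2(TPM + 0.1) and log2(TPM + 1) in limma, set and sex covariates, and leaving out each mouse. Differences within a mouse set were contrasts in 1 edgeR fit of all 12 mice, with 4 genotype-by-set groups and a shared sex term. That sex term rests on the ETAQ/+ mice, because the WT mice of each set are of the same sex. TPM served for levels between genes. All tests were two-sided. The edgeR and length fits were also run on simulated data. The counts simulated for the genotype fit held no mouse set difference, so that run does not cover this feature of the libraries.

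The receptor genes, lists, markers and tests were chosen with earlier results of these data known, including the split of the mice by number. Named in full are each receptor gene called for genotype and, per class, the gene with the highest TPM and that with the smallest genotype p; genes called for other effects; and, per list, up to 4 called genes or else the one with the smallest p. Gria1, Gria2 and Gabbr2, the neighbours of Gabra2, and Grin2c were added after their values were seen. Of the listed markers Slc18a3 matched no gene of the tables. Positions were looked up by Ensembl ID in GENCODE M21 (GRCm38) and describe that reference only. Shares of 75-base sequences found in other genes were counted on both strands, and 5% or more is called uncertain. FPKM values were not used here. Results of some genes of the set are not reported here.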

Additional observations from a re-analysis of the deposited data

Results flagged for a closer look

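Of 84 groups of 6 mice (42 genes in each genotype), 4 held 1 mouse farther from the others than Dixon's 95% critical value allows, a rate near the 1 in 20 that chance gives. WT mouse 4 was lowest for Gria3 at 126.6 normalised CPM, with the next WT mouse at 136.4; without it the genotype difference of Gria3 passed the threshold (adjusted p = 0.0167 in edgeR). ETAQ/+ mouse 6 was lowest for Grin2b, a subunit of slow NMDA receptors, at 49.8, with the next at 64.0. ETAQ/+ mouse 8 was lowest for Gabrd at 0.290, with the next at 0.589, close to the counting floor. WT mouse 10 was highest for Gabre at 4.05, with the next at 3.37. None of these libraries was left out of the main comparison.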

How the results depend on the processing

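No paired analysis was possible because the replicate numbers are mouse numbers and no number occurs in both genotypes. The count of receptor genes called for genotype was 1; it was 3 with DESeq2, 3 with the mouse set as a covariate, 0 within mice 1 to 6, and 1 to 2 when each mouse was left out in turn. The count for the pathway lists was 2; it was 0 within mice 1 to 6 (9 at an unadjusted p under 0.05, 8.89% of all genes), 0 within mice 7 to 12 (10 at an unadjusted p under 0.05, 9.54% of all genes), 1 with log2(TPM + 0.1), 1 with log2(TPM + 1), and 1 to 3 when each mouse was left out. The sex count of 0 became 6 with DESeq2 and 0 to 14 when each mouse was left out, and the mouse set count of 11 became 1 to 13. Counts for the interaction and for weighted length were 0 under every alternative run. Grin3b kept its direction throughout, from -0.53 to -0.47 when each mouse was left out (adjusted p from 0.00165 to 0.00678 in edgeR). Fold changes near 0 reversed: Gabrr2 was -0.027 with limma-voom, -0.023 within mice 1 to 6, -0.021 with log2(TPM + 0.1) and -0.0021 with log2(TPM + 1), and ran from -0.13 to 0.17 when each mouse was left out; Grin1 was -0.022 within mice 1 to 6 and ran from -0.013 to 0.022; Grid1 ran from -0.0097 to 0.053 and Grm5 from -0.0011 to 0.093. The cause was not tested. Depth limits Gabrr2, Gabrd and the 5 untested genes most.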
